A study of Mus musculus with 924 samples.

Results

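Granule nuclei of the mouse dentate gyrus were compared between 12 and 4 weeks of age. Members were selected on measured values: a nucleus was taken as a granule nucleus if it held Prox1, at least 2 of the 5 genes C1ql2, C1ql3, Fam163b, Glis3 and Sema5a, and no Gad2. By this rule 305 nuclei were members, of 418 in the groups compared and 924 in the whole series. There were 236 at 12 weeks and 69 at 4 weeks. The nuclei were fixed with the tissue, isolated on a sucrose gradient, sorted into plates by flow cytometry and sequenced one by one from full-length cDNA by a modified Smart-seq2 method. All mice carried the strain label C57BL/6, and no allele, agent or sex was labelled. The 12-week nuclei came from dissected dentate gyrus in 4 preparations, a preparation being the nuclei of 1 age that share a number in their labels, with 89, 39, 58 and 50 granule nuclei. The 4-week nuclei came in 2 preparations with 20 and 49 granule nuclei. Those of 4-week preparation 1 were labelled as dentate gyrus and those of preparation 2 carried no region label. The labels do not say whether a number stands for an animal, so p-values measure only the spread between these preparations, which may be technical. In addition, 2 preparations of nuclei from 2-year-old mice, with 42 and 60 granule nuclei, are given as values beside a few genes; preparation 2 of these was labelled as dentate gyrus and preparation 1 carried no region label. Preparations of the different ages were made from different mice, and the labels name no shared day or batch, so age and handling cannot be told apart.

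Granule neurons are the principal excitatory cells of the dentate gyrus. They receive the perforant path from the entorhinal cortex and send mossy fibres to CA3, and new ones are made throughout life. A young granule neuron expresses cytoskeletal and growth genes such as doublecortin and stathmins, while a mature one expresses the calcium buffer calbindin, adult glutamate receptor subunits and the chloride exporter KCC2. Enkephalin, dynorphin, cholecystokinin and brain-derived neurotrophic factor are among the peptides and growth factors that hippocampal neurons can make.

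The genes of the selection rule are given as a description only. Prox1, the homeobox factor of granule neurons, lay at 9.25 and 9.56 at 4 weeks and between 9.47 and 10.09 at 12 weeks, where a level is the mean of log2(value + 1) over the granule nuclei of a preparation. Of the 5 further genes, all were present in 158 of the 236 nuclei at 12 weeks and in 26 of the 69 at 4 weeks. Exactly 2, the fewest allowed, were present in 3 and 6 nuclei, while 1 and 2 nuclei with exactly 1 of them fell just outside. Glis3 lay at 2.93 and 4.74 at 4 weeks and at 6.77 to 7.92 at 12 weeks, so the rule was met with different weights at the 2 ages. The granule share of all nuclei was 82.5% ± 13.1 (SD, n = 4) at 12 weeks and 59.98% ± 4.01 (SD, n = 2) at 4 weeks (two-sided exact permutation p = 0.133, the smallest that 4 against 2 preparations allow).

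The median number of genes above a value of 1 in a granule nucleus was 5399.5 and 5075 in the 4-week preparations and 4635, 4845, 4709 and 4888 in the 12-week preparations. Both 4-week preparations lay above all 12-week preparations, with a difference of -468 genes at 12 weeks (two-sided exact permutation p = 0.133, the smallest possible). The median difference of all tested genes, 12 weeks minus 4 weeks, was -0.20 on the log2(value + 1) scale. Differences below are given relative to that median, and their SEs, p-values and calls are those before the shift. A difference on this scale follows both the share of nuclei in which a gene was detected and its level where detected, and is not a linear fold. As a check of the samples, Y-linked transcripts were present in all 6 preparations and Xist lay between 0 and 0.74.

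Of 10748 genes tested with limma, 1333 (12.4%) differed between the ages at a Benjamini-Hochberg adjusted p under 0.05. Of all tested genes, 4.55% (489 genes) were higher at 12 weeks and 7.85% (844 genes) were higher at 4 weeks. For 34.4% of tested genes the preparations of the 2 ages did not overlap. The interquartile range of all differences ran from -0.57 to 0.63. Without 4-week preparation 1 limma called 62.3% as many genes, and without 12-week preparation 3 it called 63.5% as many. Of the called genes, 36.7% were higher at 12 weeks, and this share was 52.1% when the preparations were quantile normalized and the median thus moved towards 0. Among the 83 named genes that were called, 51 lost the call when detected genes per nucleus, higher in number at 4 weeks, entered the fit as a covariate. When values were averaged over nuclei before taking the log2, 33 lost it. The first setting is called the gene-number covariate below and the second the mean-value scale. Calls that ended in either are named with each group of genes. Gene number did not overlap between the ages, so the gene-number covariate cannot part it from age in these 6 preparations. Differences whose calls ended under it moved both ways, as for Sox11 (-2.82 to -3.66) and Dsp (3.83 to 2.30). The part of gene number in such differences was thus not tested.

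**Figure D1:**
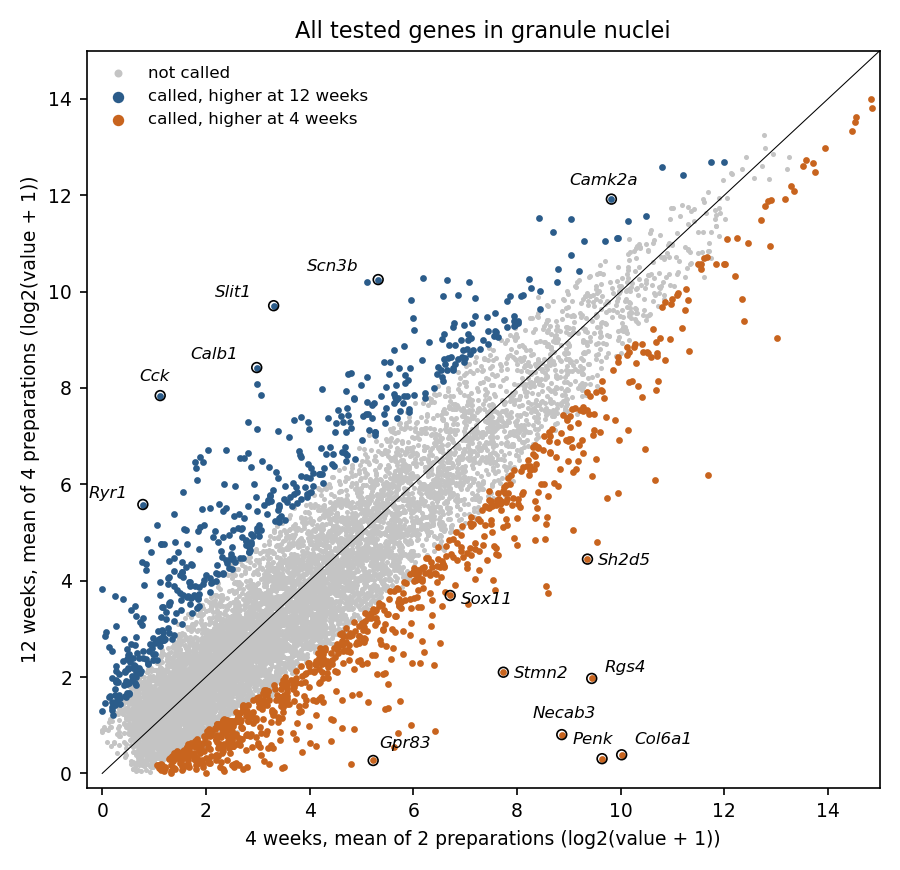
Mean level at 12 weeks (4 preparations) against mean level at 4 weeks (2 preparations) for the 10748 tested genes, both axes in log2(value + 1), with called genes in blue (489, higher at 12 weeks) and orange (844, higher at 4 weeks). Penk, Col6a1, Necab3 and Rgs4 lie apart at the lower right, and Cck, Calb1 and Slit1 at the upper left.

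The genes furthest higher at 4 weeks were Penk and Col6a1. Penk encodes proenkephalin, the precursor of the enkephalin opioid peptides, and lies on chromosome 4 from 4133536 to 4138815 (GRCm38). Its level was 8.86 and 10.42 in the 4-week preparations and 0.14, 0.52, 0.21 and 0.36 in the 12-week preparations. All 12-week preparations were near 0 and the ages did not overlap. The difference was -9.14 (SE 0.57, limma adjusted p = 2.99e-12, n = 4 against 2). Col6a1, the alpha-1 chain of collagen VI of the extracellular matrix (chromosome 10, 76708792 to 76726044), lay at 9.88 and 10.16 at 4 weeks and at 0.53, 0.49, 0.25 and 0.28 at 12 weeks. Its preparations parted in the same way, with a difference of -9.44 (SE 0.55, limma adjusted p = 9.52e-13). These 2 genes, with Calb1 and Slit1, had been picked with earlier results of these data known.

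Necab3 and Rgs4 followed. Necab3, a neuronal EF-hand calcium-binding protein (chromosome 2, 154544391 to 154559406), lay at 9.06 and 8.67 at 4 weeks and at 1.09, 0.64, 0.29 and 1.19 at 12 weeks (difference -7.86, SE 0.55, limma adjusted p = 4.39e-11). Rgs4, which speeds the shut-off of G protein signals (chromosome 1, 169741477 to 169747642), lay at 9.09 and 9.80 at 4 weeks and at 2.15, 2.41, 1.53 and 1.79 at 12 weeks (difference -7.27, SE 0.58, limma adjusted p = 6.09e-10). For both genes every 4-week preparation was far above every 12-week one, and Rgs4 kept a low level at 12 weeks. Among genes whose ages did not overlap, the next largest differences towards 4 weeks were those of Stmn2, a microtubule protein of growth cones (-5.44), the transmembrane channel-like gene Tmc6 (-5.32), the tetraspanin gene Cd63 (-4.88), the G protein-coupled receptor gene Gpr83 (-4.76), the SH2 adaptor gene Sh2d5 (-4.72) and Fbln2, the matrix protein fibulin 2 (-4.66). The call for Sh2d5 ended under the gene-number covariate (limma adjusted p = 0.0628) and that for Fbln2 on the mean-value scale (limma adjusted p = 0.0507).

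**Figure D2:**
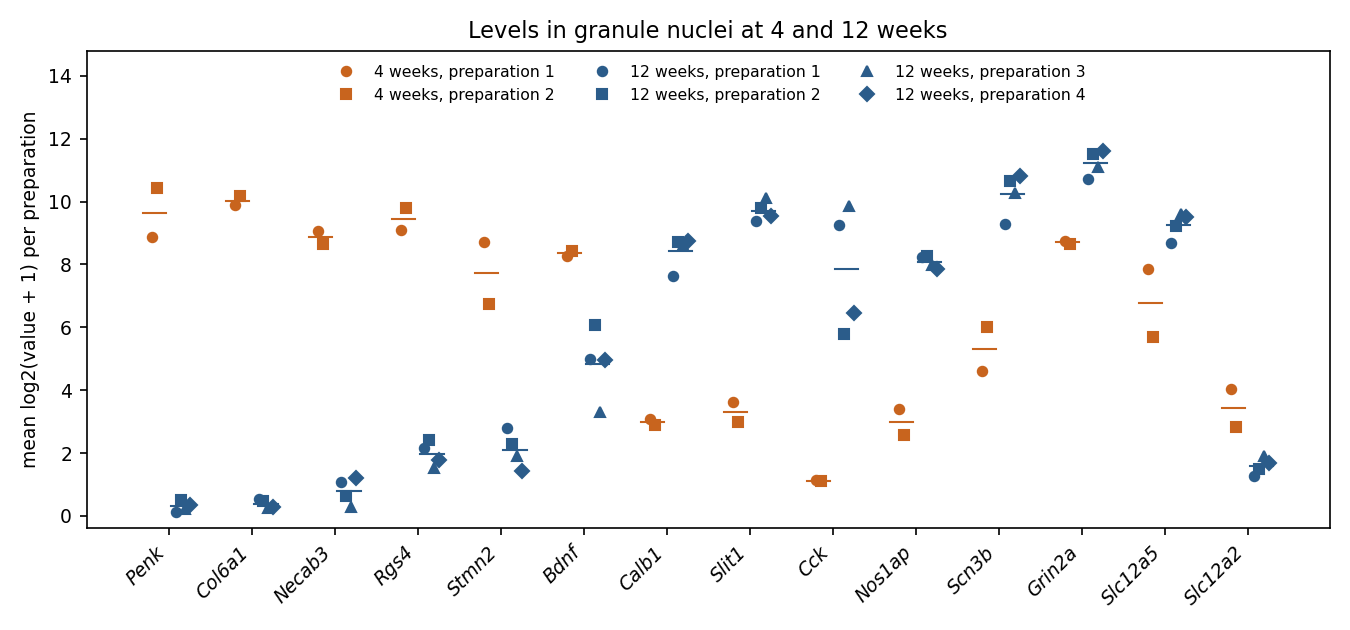
Level of 14 genes in each preparation, as mean log2(value + 1) over its granule nuclei, with 4-week preparations in orange, 12-week preparations in blue and a bar at the mean of each age. Penk and Col6a1 lie between 8.86 and 10.42 at 4 weeks and at 0.53 or less at 12 weeks, and Calb1, Slit1 and Cck lie the other way round.

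Of the 10 named genes with the largest differences, 6 had an entry in the RefSeq promoter table (GRCm38.p6). The 250 bases before the start site are shown for Col6a1 and Rgs4, higher at 4 weeks, and Cck, higher at 12 weeks, all on the minus strand and read 5′ to 3′ towards the gene. Capitals mark matches, on either strand, to the cyclic AMP response half-site TGACG, the AP-1 site TGANTCA or the TATA box TATAAA, motifs that do not overlap in these windows. The windows are chr10:76726045-76726294 for Col6a1, chr1:169747643-169747892 for Rgs4 and chr9:121495695-121495944 for Cck.
Col6a1: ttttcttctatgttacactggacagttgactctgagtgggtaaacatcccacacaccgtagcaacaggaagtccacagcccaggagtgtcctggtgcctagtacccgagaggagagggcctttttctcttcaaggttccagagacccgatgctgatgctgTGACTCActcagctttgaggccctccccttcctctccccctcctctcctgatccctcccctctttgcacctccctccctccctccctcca
Rgs4: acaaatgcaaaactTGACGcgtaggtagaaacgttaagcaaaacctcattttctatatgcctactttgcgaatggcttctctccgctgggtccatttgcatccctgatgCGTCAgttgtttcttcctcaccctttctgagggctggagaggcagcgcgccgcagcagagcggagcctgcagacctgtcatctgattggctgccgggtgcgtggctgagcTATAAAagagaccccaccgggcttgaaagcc
Cck: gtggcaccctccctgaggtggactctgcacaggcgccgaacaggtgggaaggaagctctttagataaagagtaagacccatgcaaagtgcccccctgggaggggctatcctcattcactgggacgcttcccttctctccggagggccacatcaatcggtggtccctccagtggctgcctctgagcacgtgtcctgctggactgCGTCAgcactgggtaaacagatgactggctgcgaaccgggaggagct
The Col6a1 window holds 1 AP-1 match, read TGACTCA, that begins 90 bases before the start. In Rgs4 there are 2 half-site matches, beginning 236 and 141 bases before the start, and a TATA box at 31 bases, and in Cck there is 1 half-site at 47 bases. Among 32851 promoter windows of this length, 17.8% hold the half-site, 6.75% the AP-1 site and 12.4% the TATA box. The windows of Col6a1 and Rgs4 share none of the 3 motifs. The Necab3 entry starts inside the gene's annotated span, so its window is not shown. Nor are those of Tmc6, higher at 4 weeks, and Nos1ap, higher at 12 weeks, whose entry also starts inside its gene's span. Necab3 and Tmc6 hold none of the 3 motifs. Nos1ap holds 1 AP-1 match, read TGACTCA like that of Col6a1, that begins 24 bases before the start.

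In single nuclei, the ages differed in how many nuclei held the transcript. Penk was detected in 55 of 69 nuclei at 4 weeks (79.7%) and in 6 of 236 at 12 weeks (2.54%). Col6a1 was detected in 58 of 69 (84.1%) and in 12 of 236 (5.08%). In nuclei that held between 4000 and 6000 genes, Penk was detected in 68.8% and 77.4% of nuclei in the 4-week preparations and in 1.67%, 3.12%, 2.17% and 6.06% in the 12-week preparations. In these nuclei of similar gene number the ages again did not overlap. Both genes were present in 51 of the 69 4-week nuclei and neither in 7, and across nuclei of a 4-week preparation their levels had a Spearman rho of 0.302 (20 nuclei) and 0.559 (49 nuclei). These nuclei share a preparation and differ in depth, so the rho is a description. All 4 of Penk, Col6a1, Necab3 and Rgs4 were in 46 of 69 nuclei at 4 weeks and 0 of 236 at 12 weeks. None of the 4 was present in 5 and 166 nuclei. These genes were picked for their differences in the same data, so the counts are a description and not a test. Within single 12-week preparations, a count of 0 allows a share of up to 3.4% to 7.7% by counting error alone.

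**Figure D3:**
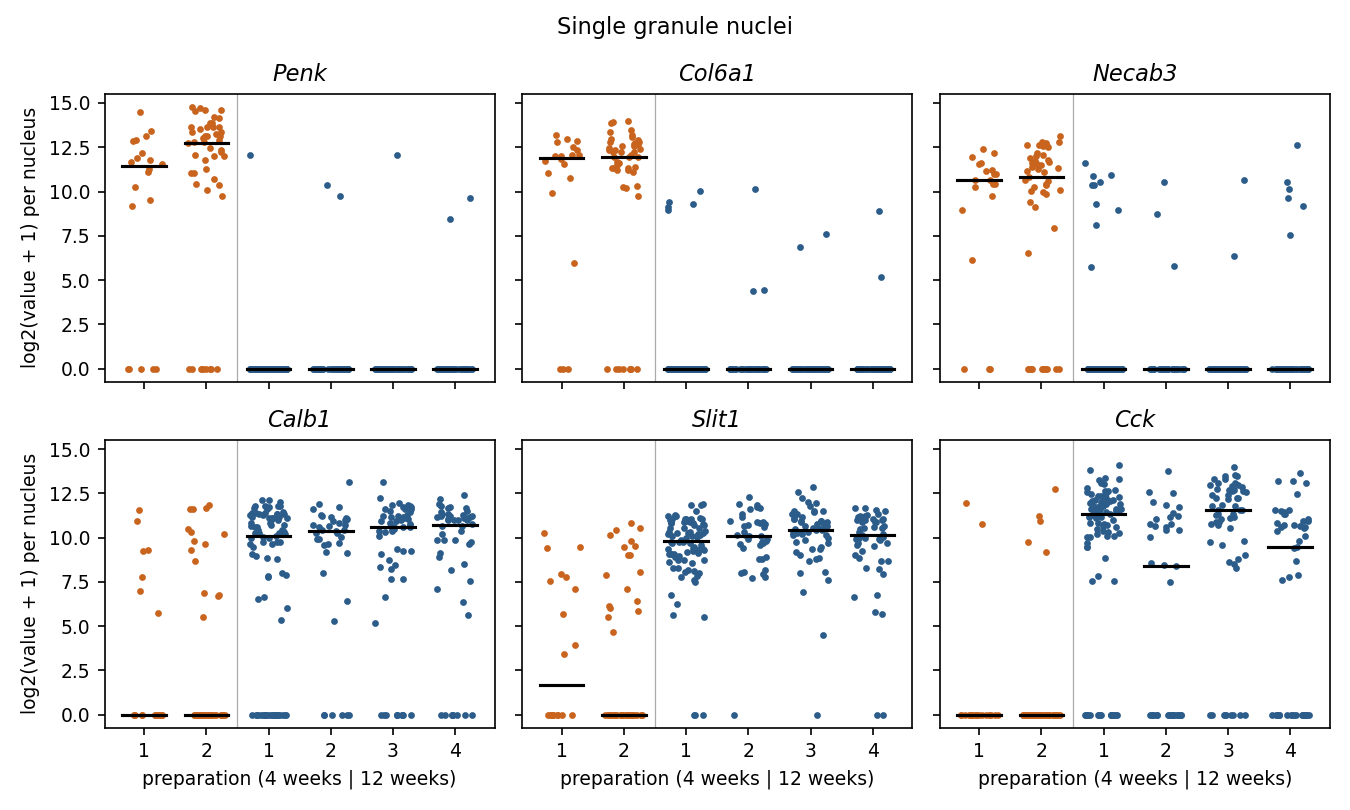
Level of 6 genes in every granule nucleus, in log2(value + 1), by preparation (4-week in orange, 12-week in blue), with a bar at the median nucleus. Penk and Col6a1 were detected in 55 and 58 of 69 nuclei at 4 weeks and in 6 and 12 of 236 at 12 weeks, and most of the remaining nuclei lie at 0.

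The genes furthest higher at 12 weeks were Cck, Slit1 and Calb1. Slit1, a secreted guidance ligand of the Robo receptors (chromosome 19, 41597824 to 41747275), lay at 3.62 and 2.99 at 4 weeks and at 9.38, 9.81, 10.10 and 9.54 at 12 weeks. The 12-week preparations were close to each other and the ages did not overlap. The difference was 6.60 (SE 0.50, limma adjusted p = 6.42e-10, n = 4 against 2). Calb1, the calcium buffer calbindin (chromosome 4, 15881264 to 15906709), lay at 3.08 and 2.88 at 4 weeks and at 7.64, 8.70, 8.62 and 8.73 at 12 weeks. Its 12-week preparation 1 was lower than the other 3 and still above both 4-week preparations (difference 5.64, SE 0.55, limma adjusted p = 1.11e-07). Cck, the neuropeptide cholecystokinin (chromosome 9, 121489824 to 121495694), lay at 1.14 and 1.10 at 4 weeks and at 9.24, 5.79, 9.87 and 6.47 at 12 weeks. All 12-week preparations were higher, but they split into 2 high and 2 intermediate levels (difference 6.92, SE 0.80, limma adjusted p = 1.53e-06). Under the gene-number covariate the Cck difference was 3.34 and was not called (limma adjusted p = 0.223).

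Among genes whose ages did not overlap, those with the next largest differences towards 12 weeks were Nos1ap, an adaptor of neuronal nitric oxide synthase (5.31), the sodium channel beta subunit gene Scn3b (5.12), the intracellular calcium release channel gene Ryr1 (5.0), the Cdc42 exchange factor gene Dock9 (4.87), the giant cadherin gene Fat4 (4.87), the thyroid hormone-binding crystallin gene Crym (4.87) and Spns2, a transporter of sphingosine-1-phosphate (4.73). Scn3b was present in 55% and 71.4% of nuclei at 4 weeks and in 91% to 100% at 12 weeks. Ryr1 was present in 20% and 16.3% at 4 weeks and in 66% to 87.9% at 12 weeks. The calls for Ryr1 and Spns2 ended under the gene-number covariate (limma adjusted p = 0.113 and 0.0706). With the log2 of the mean value over nuclei in place of the mean log2, the difference was 2.01 for Calb1, 2.85 for Slit1 and 3.11 for Cck, and the limma calls were kept.

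Most 4-week nuclei with Slit1 or Calb1 also held Penk, as did 55 of all 69 4-week nuclei (79.7%). Slit1 was present in 28 of 69 nuclei at 4 weeks and in 229 of 236 at 12 weeks, and Calb1 in 22 of 69 and 189 of 236. Of the 28 4-week nuclei with Slit1, 24 also held Penk and 27 also held Col6a1, which was in 58 of all 69. Of the 22 with Calb1, 17 also held Penk. Within the 4-week preparations the Spearman rho of Penk with Slit1 was 0.0988 (20 nuclei) and -0.0869 (49 nuclei). Where it was detected, Slit1 had a median of 7.94 at 4 weeks and 10.2 at 12 weeks, and Calb1 of 9.48 and 10.7, so levels in positive nuclei were lower at 4 weeks as well. Cck was present in 7 of 69 nuclei at 4 weeks and in 172 of 236 at 12 weeks. Of the 7 4-week nuclei with Cck, 3 also held Penk and 4 did not, too few for a comparison with the other genes. In the 2 preparations of 2-year-old mice, Penk lay at 2.52 and 1.14, Col6a1 at 1.76 and 0.78, Calb1 at 6.20 and 6.97 and Slit1 at 7.66 and 9.76. Penk and Col6a1 were thus above their 12-week levels and far below their 4-week levels in both 2-year preparations, a difference that was not tested here. Granule nuclei of the 2-year preparations held medians of 4974 and 5624 genes, above every 12-week preparation. The part of gene number in these levels was not tested.

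Markers of maturation were read from 2 lists that the selection rule did not use. The 13 tested markers of newborn granule neurons had a median difference of -0.66, beside 0 for all genes. Limma called 5 of them higher at 4 weeks and 0 at 12 weeks, beside 7.85% and 4.55% of all genes. They were the neuronal tubulin gene Tubb3 (-3.13), the microtubule regulator gene Stmn1 (-3.08), the transcription factor gene Sox11 (-2.82), Igfbpl1 (-1.95) and the growth cone gene Dpysl3 (-1.32). Sox11 lay at 6.24 and 7.18 at 4 weeks and at 4.28, 3.02, 2.57 and 4.90 at 12 weeks, higher at 4 weeks with no overlap. Dcx, doublecortin, the usual marker of newborn neurons, lay at 1.53 and 2.02 at 4 weeks and at 1.70, 1.0, 1.52 and 1.01 at 12 weeks, and its ages overlapped (difference -0.27, limma adjusted p = 0.486). Of 5 tested proliferation genes, limma called 0, with 0 at an unadjusted p under 0.05.

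The 18 markers of mature granule neurons had a median of 1.54. Of these, 10 were higher at 12 weeks and 0 at 4 weeks, beside 4.55% and 7.85% of all genes. Besides Calb1 they included the desmosome gene Dsp (3.83), the lactase gene Lct (3.75), the Notch coactivator gene Maml2 (3.73) and the kinase genes Camk2a (2.30) and Camk2b (0.89). Camk2a, a kinase of synaptic plasticity, lay at 9.73 and 9.91 at 4 weeks and at 12.00, 11.96, 11.94 and 11.78 at 12 weeks. Its preparations were close together within each age, and the ages did not overlap (SE 0.28, limma adjusted p = 8.87e-06). With detected genes per nucleus as a covariate, 1 newborn marker and 5 mature markers were called. Among them were neither Sox11 (difference -3.66, limma adjusted p = 0.203) nor Camk2a (difference 1.54, limma adjusted p = 0.069). Stmn1, Igfbpl1 and Dsp also lost their calls there (limma adjusted p = 0.362, 0.322 and 0.296), and on the mean-value scale Igfbpl1 and Maml2 did so (limma adjusted p = 0.0518 and 0.0667).

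Genes of peptide release went both ways. Of 10 tested neuropeptide and neurotrophin genes, 5 were higher at 4 weeks and 1, Cck, at 12 weeks. The shares of all tested genes were 7.85% and 4.55%. Bdnf, brain-derived neurotrophic factor, lay at 8.27 and 8.44 at 4 weeks and at 5.0, 6.07, 3.31 and 4.96 at 12 weeks, below the 4-week levels in every preparation (difference -3.32, SE 0.64, limma adjusted p = 0.000379). The granule proteins of dense-core vesicles Chgb (-2.84) and Scg2 (-2.33) and the gastrin-releasing peptide gene Grp (-1.83) were also higher at 4 weeks. Of 5 tested opioid genes Penk alone was called. Pdyn, the precursor of dynorphin, lay at 0.86 and 2.42 at 4 weeks and at 2.76, 2.70, 3.37 and 2.35 at 12 weeks, with overlap (difference 1.35, limma adjusted p = 0.15). The opioid receptor genes Oprm1, Oprd1 and Oprk1 lay at or under 1.62 in all 6 preparations. The call for Grp ended without 4-week preparation 1 or 12-week preparation 1 or 2 (limma adjusted p = 0.0555, 0.0685 and 0.0562), Pdyn and the proopiomelanocortin gene Pomc were called without 4-week preparation 2 (limma adjusted p = 0.0259 and 0.000495), and Oprm1 without 4-week preparation 1 (limma adjusted p = 0.00517). Under the gene-number covariate calls ended for Cck, Bdnf, Chgb and Grp (limma adjusted p = 0.223, 0.296, 0.0572 and 0.265), and on the mean-value scale that for Grp ended (limma adjusted p = 0.0884).

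Of 9 tested genes of the Slit and Robo pathway (median 0.63), 3 were higher at 12 weeks and 0 at 4 weeks. The shares of all tested genes were 4.55% and 7.85%. The 3 called were Slit1, the ligand gene Slit3 (3.85) and the netrin receptor gene Dcc (2.83). The receptor genes Robo1 (-0.04) and Robo2 (0.52), which bind Slit proteins, were not called. Of 21 other guidance genes limma called 3, beside 12.4% of all tested genes: the semaphorin receptor gene Nrp1 was higher at 12 weeks (3.34) and the ligand gene Sema3e (-2.83) and the netrin receptor gene Unc5d (-1.38) at 4 weeks. Of 12 tested matrix genes, 1 was higher at 12 weeks and 3 at 4 weeks, beside 4.55% and 7.85% of all genes. Tenascin R, Tnr, was higher at 12 weeks (3.22). Col6a1, its partner chain gene Col6a2 (-2.20) and the aggrecan gene Acan (-0.88) were higher at 4 weeks. Col6a2 lay at 3.24 and 1.82 at 4 weeks and at 0.24, 0.12, 0.09 and 0.10 at 12 weeks, on a much lower length-normalized level than Col6a1 but with the same lack of overlap. Unc5d lost its call without 4-week preparation 1 (limma adjusted p = 0.228) or 12-week preparation 2 or 3 (limma adjusted p = 0.0554 and 0.068), and Acan without 12-week preparation 1, 3 or 4 (limma adjusted p = 0.0718, 0.0767 and 0.0645). On the mean-value scale Nrp1 was at 0.74 and Dcc at 1.52, and neither was called (limma adjusted p = 0.0866 and 0.0985), nor were Sema3e, Unc5d and Acan (limma adjusted p = 0.0507, 0.221 and 0.0866). The calls for Slit3, Dcc, Nrp1, Unc5d, Col6a2 and Acan ended under the gene-number covariate (limma adjusted p between 0.13 and 0.918).

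Of 34 synaptic adhesion genes, 5 were higher at 12 weeks and 3 at 4 weeks, beside 4.55% and 7.85% of all tested genes, with a median of 0.28. Among those higher at 12 weeks were the protocadherin gene Pcdh19 (3.85), the cadherin gene Cdh8 (2.53), the postsynaptic gene Lrrtm1 (2.36) and the neuroligin gene Nlgn3 (2.21). Cdh13 (-2.86), Pcdh7 (-2.46) and Nrxn3 (-1.60) were higher at 4 weeks, with Pcdh7 at -1.61 without 4-week preparation 2. Members of the cadherin and protocadherin families were therefore found on both sides. On the mean-value scale the calls for Cdh8, Cdh13 and Pcdh7 ended (limma adjusted p = 0.0836, 0.138 and 0.173), and under the gene-number covariate those for Cdh8 and Cdh13 (limma adjusted p = 0.133 and 0.384).

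Of 11 tested ionotropic glutamate receptor genes, 5 were higher at 12 weeks and 0 at 4 weeks, beside 4.55% and 7.85% of all genes. The list's median was 1.24. Grin2a, the NMDA receptor subunit that replaces the juvenile form in mature synapses, lay at 8.75 and 8.65 at 4 weeks and at 10.72, 11.52, 11.11 and 11.62 at 12 weeks. All 12-week preparations were higher (difference 2.74, SE 0.35, limma adjusted p = 1.01e-05). This gene was also counted among the mature markers above. Grin2b, the subunit of juvenile NMDA receptors, lay at 9.42 and 8.98 at 4 weeks and at 9.99, 10.54, 10.20 and 10.23 at 12 weeks. It too lay higher in every 12-week preparation without passing the threshold (difference 1.24, limma adjusted p = 0.0575), and it passed in 7 of the 22 other settings. The kainate receptor genes Grik5 (2.92) and Grik3 (2.87) and the AMPA receptor genes Gria3 (1.64) and Gria1 (1.52) were the other members called. Of 5 tested metabotropic receptor genes Grm2, a presynaptic receptor of mossy fibres, was higher at 12 weeks (1.92). Calls ended for Gria3 without 4-week preparation 1 or 12-week preparation 2 or 3 (limma adjusted p = 0.123, 0.058 and 0.0925), for Grik3 without 4-week preparation 1 (limma adjusted p = 0.0565) and for Grm2 without 4-week preparation 1 or 2 or 12-week preparation 2 or 4 (limma adjusted p = 0.0564, 0.0819, 0.111 and 0.0733). Under the gene-number covariate Grik5, Grik3, Gria3 and Grm2 were not called (limma adjusted p = 0.0787, 0.215, 0.525 and 0.093), and on the mean-value scale Gria3 and Grm2 were not (limma adjusted p = 0.101 and 0.12).

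The 2 chloride transporters that set the response to GABA went in opposite directions. Slc12a5 encodes the exporter KCC2 and lay at 7.85 and 5.69 at 4 weeks and at 8.69, 9.23, 9.60 and 9.52 at 12 weeks. Every 12-week preparation was higher, and 4-week preparation 2 was the lowest (difference 2.69, SE 0.52, limma adjusted p = 0.00165). Slc12a2 encodes the importer NKCC1 and lay at 4.05 and 2.84 at 4 weeks and at 1.28, 1.49, 1.91 and 1.67 at 12 weeks, lower in every 12-week preparation (difference -1.66, SE 0.49, limma adjusted p = 0.0113). The 9 tested GABA-A receptor genes had a median of 0.08. Of these, 3 were higher at 12 weeks and 0 at 4 weeks, beside 4.55% and 7.85% of all genes. Among them were Gabra5 (2.56) and Gabrd (2.17), subunits of extrasynaptic receptors. Without 4-week preparation 2 the limma adjusted p was 0.0536 for Slc12a5 (difference 1.78), 0.35 for Gabra5 (difference 1.39) and 0.413 for Gabrd (difference 1.3), and without 4-week preparation 1 it was 0.149 for Slc12a2. Gabra5 and Gabrd also lost their calls without 12-week preparation 1, 3 or 4 (limma adjusted p between 0.0597 and 0.131). Under the gene-number covariate calls ended for Slc12a2, Gabra5 and Gabrd (limma adjusted p = 0.766, 0.128 and 0.233), and on the mean-value scale that for Gabra5 (limma adjusted p = 0.159).

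Of 20 tested calcium-binding and calcium-kinase genes, 5 were higher at 12 weeks and 1 at 4 weeks, beside 4.55% and 7.85% of all genes. The list's median was 0.86. Of the members higher at 12 weeks, Calb1, Camk2a and Camk2b were also counted among the mature markers above. Kcnip2 and Kcnip3 both encode calcium-sensing partners of A-type potassium channels. Kcnip2 lay at 7.04 and 7.32 at 4 weeks and at 9.63, 9.55, 10.50 and 9.78 at 12 weeks. Kcnip3 lay at 7.46 and 7.71 at 4 weeks and at 4.49, 3.86, 3.66 and 3.19 at 12 weeks. On this length-normalized scale the 2 partner genes were thus at similar levels at 4 weeks and parted at 12 weeks, with differences of 2.88 (SE 0.43, limma adjusted p = 8.95e-05) and -3.58 (SE 0.58, limma adjusted p = 5.51e-05). Kcnd2, the pore-forming subunit of such channels, was higher at 12 weeks (2.58), a call that ended without 4-week preparation 1 (limma adjusted p = 0.0525). On the mean-value scale the difference was 0.94 for Kcnip2 and -1.14 for Kcnip3, and the calls for Kcnip3 and Kcnd2 ended (limma adjusted p = 0.0602 and 0.222). The calls for Kcnip2 and Kcnd2 ended under the gene-number covariate (limma adjusted p = 0.174 and 0.284).

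Of 22 potassium channel genes, 5 were higher at 12 weeks and 1 at 4 weeks, beside 4.55% and 7.85% of all tested genes. The list's median was 0.70. Kcnk9, a leak channel gene, lay at 0 and 0.28 at 4 weeks and at 2.41 to 3.07 at 12 weeks, while the leak channel gene Kcnk1 lay at 8.67 and 9.28 at 4 weeks and at 5.93 to 7.53 at 12 weeks. The inward rectifier gene Kcnj6 (2.20) and the channel genes Kcnq3 (1.98) and Kcnb2 (1.5) were higher at 12 weeks. Of 21 sodium and calcium channel genes, 5 were higher at 12 weeks and 2 at 4 weeks, beside the same shares (median 0.76). Besides Scn3b, the calcium channel genes Cacna1h (2.36), Cacna1c (2.02), Cacna1i (1.65) and Cacna1e (1.56) were higher at 12 weeks. The auxiliary subunit gene Cacna2d2 lay at 3.44 and 3.57 at 4 weeks and at 0.00, 0.24, 0.14 and 0.14 at 12 weeks, with no overlap (difference -3.18, SE 0.37, limma adjusted p = 3.69e-07). The call for Cacna1h ended without 4-week preparation 2 (limma adjusted p = 0.159) and that for Cacna1c without 4-week preparation 1 (difference 1.31, limma adjusted p = 0.285) or 12-week preparation 2, 3 or 4 (limma adjusted p = 0.079, 0.117 and 0.103). Under the gene-number covariate calls ended for Kcnk9, Kcnk1, Kcnj6, Cacna1h and Cacna1c (limma adjusted p between 0.0618 and 0.491), and on the mean-value scale those for Kcnk1 and Cacna1c (limma adjusted p = 0.0562 and 0.0869).

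**Figure D4:**
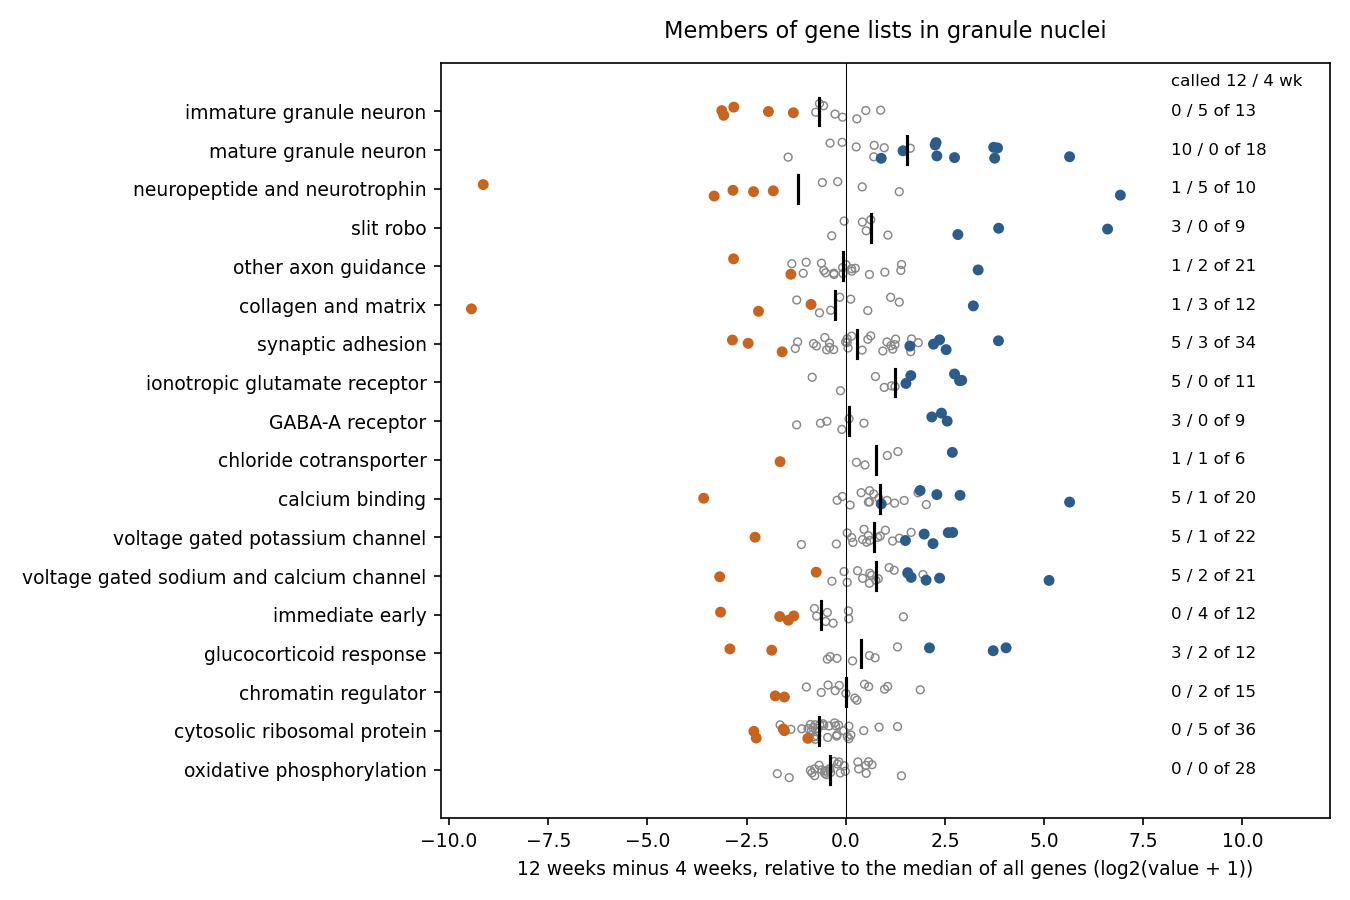
Difference of each tested member of 18 gene lists, 12 weeks minus 4 weeks relative to the median of all genes, with called members filled (blue for 12 weeks, orange for 4 weeks), uncalled members open and a bar at the list's median. The mature granule neuron and ionotropic glutamate receptor lists hold called members higher at 12 weeks only (10 of 18 and 5 of 11), Grin2a being in both. The immature granule neuron list holds called members higher at 4 weeks only (5 of 13).

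Immediate early genes, which neurons switch on when active, had a median of -0.62. Of 12 tested members, 4 were higher at 4 weeks and 0 at 12 weeks, beside 7.85% and 4.55% of all genes. Nptx2, a pentraxin that gathers AMPA receptors, lay at 2.90 and 4.05 at 4 weeks and at 0.15, 0.00, 0.00 and 0.32 at 12 weeks. The 12-week preparations were at or near 0 (difference -3.16, SE 0.39, limma adjusted p = 1.2e-06). The cytoskeletal gene Arc lay at 1.77 and 1.86 at 4 weeks and at 0.12, 0.24, 0.20 and 0.12 at 12 weeks, low at both ages (difference -1.45, SE 0.31, limma adjusted p = 0.000725). Fosl2 (-1.67), an AP-1 factor gene, and Inhba (-1.31), the activin A subunit gene, were the other called members. Their calls ended without 12-week preparation 1 or 3 (limma adjusted p = 0.065 and 0.0582 for Fosl2, 0.0577 and 0.0572 for Inhba), and for Fosl2 also without 12-week preparation 2 (limma adjusted p = 0.0507) or 4-week preparation 1 (difference -0.97, limma adjusted p = 0.345). Arc, Fosl2 and Inhba were not called under the gene-number covariate (limma adjusted p = 0.174, 0.993 and 0.648), and on the mean-value scale Fosl2 was not (limma adjusted p = 0.272).

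Of 12 tested glucocorticoid response genes, 3 were higher at 12 weeks and 2 at 4 weeks, beside 4.55% and 7.85% of all genes. Nr3c2, the mineralocorticoid receptor, lay at 5.32 and 4.27 at 4 weeks and at 7.76, 8.23, 8.35 and 8.92 at 12 weeks. Its ages did not overlap (difference 3.72, SE 0.54, limma adjusted p = 5.35e-05). The steroid-induced repressor gene Zbtb16 (4.04) and the transcription factor gene Klf9 (2.11) were also higher at 12 weeks. The kinase gene Sgk1 (-2.92) and the cell cycle inhibitor gene Cdkn1a (-1.87), both of which glucocorticoids can induce, were higher at 4 weeks, with Cdkn1a at -2.92 without 4-week preparation 1. Fkbp5, the receptor co-chaperone gene, was not called (0.74, limma adjusted p = 0.587). Of 15 chromatin regulator genes limma called 2, beside 12.4% of all tested genes: the DNA methyltransferase gene Dnmt3a (-1.78) and the demethylation enzyme gene Tet1 (-1.55) were higher at 4 weeks. Dnmt3a lay at 8.63 and 8.64 at 4 weeks and at 6.98, 6.35, 6.52 and 6.79 at 12 weeks, the 2 ages being well apart. Of 14 clock genes, Clock alone was called (1.94, limma adjusted p = 0.0491), and this call ended without 4-week preparation 1 or any single 12-week preparation (limma adjusted p between 0.0545 and 0.296). The call for Tet1 ended without any single preparation other than 12-week preparation 3 (limma adjusted p between 0.0681 and 0.108). On the mean-value scale the calls for Cdkn1a, Dnmt3a, Tet1 and Clock ended (limma adjusted p between 0.0836 and 0.434), and under the gene-number covariate those for Sgk1, Dnmt3a, Tet1 and Clock (limma adjusted p between 0.0871 and 0.458).

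Some markers that vary along the long axis of the dentate gyrus differed as well, beside 12.4% of all tested genes. Of 4 dorsal markers, Lct was higher at 12 weeks, and Gsg1l (-2.86) and Spata13 (-2.39) were higher at 4 weeks. Of 3 tested ventral markers, Resp18 (-3.15) and Grp were higher at 4 weeks. On the mean-value scale Gsg1l was at -0.91 and Spata13 at -0.42, and neither was called (limma adjusted p = 0.177 and 0.691), nor were Resp18 and Grp (limma adjusted p = 0.0866 and 0.0884). Under the gene-number covariate the calls for Gsg1l (-0.69, limma adjusted p = 0.904), Spata13 (-2.08, limma adjusted p = 0.504) and Grp (limma adjusted p = 0.265) ended. The dissected position along this axis is not labelled, and its part in the differences was not tested.

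Of 36 cytosolic ribosomal protein genes, 5 were higher at 4 weeks and 0 at 12 weeks, beside 7.85% and 4.55% of all tested genes, with a median of -0.68. They were Rps18 (-2.32, and -1.51 without 12-week preparation 2), Rps9 (-2.26), Rpl10 (-1.58), Rplp0 (-1.55) and Rpl19 (-0.96). The summed level of the list was 296 and 327 at 4 weeks and 263 to 296 at 12 weeks. Limma called 0 of the 36 without 4-week preparation 1, 11 without 4-week preparation 2 and 0 with the log2 of the mean, while quantile normalization gave 1 higher at 12 weeks and 4 at 4 weeks. Of 28 genes of oxidative phosphorylation, limma called 0, with 1 higher at 12 weeks and 2 at 4 weeks at an unadjusted p under 0.05, and it called 6 at 4 weeks without 4-week preparation 2. The number of detected genes was higher in both 4-week preparations, and under the gene-number covariate the calls for 4 of these genes ended, with Rps18 at -3.98, Rps9 at -1.35, Rpl10 at -0.82 and Rplp0 at -0.91 (limma adjusted p = 0.152, 0.67, 0.805 and 0.805).

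Markers of other cell types were low in most cases but not absent. Summed over the list, 10 astrocyte markers lay at 24.7 and 24.9 at 4 weeks and at 20.5 to 23.3 at 12 weeks, and 10 GABAergic markers at 7.17 and 8.0 and at 9.45 to 10.6. The 15 pyramidal and mossy cell markers summed to 8.36 and 8.61 at 4 weeks and to 4.57 to 8.36 at 12 weeks, with Drd2, a mossy cell marker, at 0 in all 6 preparations. The 10 oligodendrocyte markers (13.3 to 16.7 at 12 weeks, 13.9 and 16.7 at 4 weeks) and the 10 microglia and vessel markers (1.66 to 2.16 and 0.62 to 3.81) overlapped between ages. Of single markers, the astrocyte genes Gfap (-2.16) and Slc4a4 (2.54) were among those called, in different directions. Neither was called under the gene-number covariate (limma adjusted p = 0.229 and 0.441), nor was Gfap on the mean-value scale (limma adjusted p = 0.119). The part of such transcripts in the other differences was not tested.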

How the data were processed

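Values were deposited by the authors as natural logs of TPM-like values plus 1, for 25392 genes and 924 nuclei. The natural log was read from the spacing of low values. Per the submitters' processing notes, Bowtie2 and RSEM 1.27 were used with mm10. Back-transformed totals per nucleus had a median of 4.424 times the total of TPM, and read depth was not used here. No doublet caller was run, and 0 pairs of nuclei had identical values. Nuclei were placed in groups and preparations by their labels. Genes above a value of 1 in at least 20% of the granule nuclei of at least 1 preparation entered limma (3.58.1, R 4.3.3) with a variance trend, 2-sided, on the mean of log2(value + 1) with a pseudocount of 1, at a Benjamini-Hochberg threshold of 0.05. Named genes are the 4 markers, the 10 largest differences in each direction without overlap between ages, up to 4 called members of each list, all members of lists of at most 8 genes, and Dcx, Slc12a2, Slc12a5, Grin2a, Grin2b and Fkbp5. Further called list members were named after their values were seen. The members and lists were chosen with earlier results of these data known. On simulated data for 10748 genes, 33% of differences of 2 and 91% of differences of 4 were recovered, and 6 unchanged genes were called. The simulation gave 130 calls in all, against 1333 in the data, so these rates need not hold for the data. Python 3.11.15 (pandas 2.3.3, scipy 1.17.1) was used. Gene positions are RefSeq's on GRCm38. Some genes are not reported here.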

Additional observations from a re-analysis of the deposited data

Results flagged for a closer look

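Among the 4 preparations at 12 weeks, 1 preparation stood apart from the other 3 for 5 of the 111 values checked, by Dixon's ratio, where chance sets apart about 1 in 20 groups. Calb1 was 7.64 in preparation 1 and 8.62 to 8.73 in the others, and Sh2d5 was 4.18 in preparation 1 and 4.51 to 4.56 in the others. Spns2 was 7.20 in preparation 3 and 6.03 to 6.08 in the others. Gabra5 was 4.72 in preparation 2 and 6.41 to 6.57 in the others. Oprk1, a kappa opioid receptor gene near the limit of detection, was 0.11 in preparation 4 and 0 in the others.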

How the results depend on the processing

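In percent of the 1333 reported calls, 41.2% as many genes were called (63.9% of them higher at 12 weeks) with the log2 of the mean value and 15.2% with detected genes per nucleus as a covariate, and the count lay within 1.5 times the reported count in the settings not named here. In nuclei without 6 markers of other cell types, Gad1 among them, it was 1.12%, where only 11 nuclei at 4 weeks (preparation 2) and 29, 10 and 14 at 12 weeks (preparations 1, 3 and 4) were left; Grp (0.28) and Rplp0 (0.57) were reversed there. The replicate block over preparations 1 and 2 of both ages gave 47.9% as many calls; the numbers do not pair the samples (r = 0.04 between the ages' deviations). Leaving out 1 preparation gave 62.3% to 143% as many calls, with 4-week preparations 1 and 2 at the ends. A lone 4-week preparation is assumed to vary like the 12-week ones. Of called genes, 57.7% were higher at 12 weeks in nuclei with 4000 to 6000 genes and 25% without 4-week preparation 2. Of the 83 named genes called, Penk, Col6a1, Slit1, Necab3, Stmn2 and Gpr83 kept the call in all 22 settings; 17 lost it with the block, and in nuclei without the 6 markers 69 of the 77 still tested lost it, 2 were reversed and 6 kept it. With 2 preparations at 4 weeks, exact permutation cannot pass 0.05 for the number of genes (-630 to -306 when 1 preparation is left out) or the granule share (17.6 to 28.1 percentage points). The 2 preparations at 4 weeks, with 69 granule nuclei, limit what could be detected.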
